A study of Mus musculus with 7 samples.

Results

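The 10 genes described here encode enzymes and partners of 2 chromatin systems, the polycomb methyltransferase built around EZH2 and the DNA methylation machinery. They were chosen by name, with earlier results of these data known: Ezh2, Ezh1, Eed, Suz12, Dnmt1, Dnmt3a, Dnmt3b, Uhrf1, Tet2 and Tet3. All 10 were found by symbol among the 48795 genes of the deposited expression table, and all 10 were among the 11573 genes expressed highly enough to be tested. The table holds bulk RNA sequencing of 3 libraries of memory B cells (MBCs) and 4 libraries of plasma cells (PCs). The libraries are called MBC1 to MBC3 and PC1 to PC4 by group and replicate. Spleens of wild-type C57BL/6 females aged 8 to 12 weeks gave both groups, 10 days after an intravenous injection of sheep red blood cells, a T cell-dependent antigen, and CD43-expressing cells had been depleted on beads. MBCs were sorted as B220-positive, CD138-negative, IgD-negative, CD38-positive and CD273-positive cells. PCs were sorted as B220-low, CD138-positive and IgD-negative cells. The labels name no engineered allele for either group. The labels do not say whether the libraries of a group came from separate mice, so p-values measure the spread between these libraries, part of which may be technical.

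EZH2 is the catalytic subunit of polycomb repressive complex 2 (PRC2), which methylates histone H3 at lysine K27 and so marks genes that are kept silent. It works only together with EED and SUZ12, and EZH1 is an alternative, less active catalytic subunit that is typical of resting cells. DNMT1, brought to newly copied DNA by UHRF1, restores cytosine methylation after replication, DNMT3A and DNMT3B place methylation on unmethylated DNA, and the TET enzymes oxidize methylated cytosine on the way to its removal. In the B cell lineage EZH2 is best known from germinal center (GC) B cells, where it holds back cell cycle inhibitors and the PC programme, and TET2 and TET3 are known to take part in PC differentiation.

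The promoters of the 10 genes are shown first, as a description of their sequence. RefSeq gives 15 promoter windows for the 10 genes on GRCm38.p6, each reaching from 250 bases before to 50 bases after a start site. They were searched on both strands for 4 words bound by E2F factors, which switch on S phase genes (TTTCCCGC, TTTCGCGC, TTTGCCGC and TTTGGCGC), and for CCAAT, the word bound by NF-Y. An E2F word lay in 4 of the 15 windows, 1 each of Ezh2, Suz12, Dnmt1 and Uhrf1, while 2.26% of all 32851 windows hold one. The words were chosen with the sequences in view, so this contrast is a description and no test of enrichment. CCAAT lay in 8 of the 15 windows, those of Eed and Tet3 and of the same 4 genes, and in 37.4% of all windows, so a CCAAT match is common. The windows of Ezh1, Dnmt3a, Dnmt3b and Tet2 held neither word. Stretches of 120 bases are printed 5′ to 3′ on the strand of the gene, with E2F and CCAAT words in capitals. A word read on the other strand appears as its reverse complement, ATTGG for CCAAT or GCGCGAAA for an E2F word, and in Dnmt1 a CCAAT and an ATTGG overlap. These are matches of letters and no binding was measured.
Ezh2, chr6:47594981-47595100, minus strand: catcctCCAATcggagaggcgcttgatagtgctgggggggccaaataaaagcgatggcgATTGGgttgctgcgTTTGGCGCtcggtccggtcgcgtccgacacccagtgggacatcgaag
Suz12, chr11:79992856-79992975, plus strand: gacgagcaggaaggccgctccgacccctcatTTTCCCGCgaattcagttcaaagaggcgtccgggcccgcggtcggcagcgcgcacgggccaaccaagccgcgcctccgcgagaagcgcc
Dnmt1, chr9:20952754-20952873, minus strand: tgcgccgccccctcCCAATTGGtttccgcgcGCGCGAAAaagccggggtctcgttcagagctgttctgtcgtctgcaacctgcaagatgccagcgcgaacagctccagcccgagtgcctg
Uhrf1, chr17:56304072-56304191, plus strand: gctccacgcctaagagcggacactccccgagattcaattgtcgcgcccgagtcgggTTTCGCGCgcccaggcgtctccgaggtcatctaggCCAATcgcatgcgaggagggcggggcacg
Tet3, chr6:83441629-83441748, minus strand: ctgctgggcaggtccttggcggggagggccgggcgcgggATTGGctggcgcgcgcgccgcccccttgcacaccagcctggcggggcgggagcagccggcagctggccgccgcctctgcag
The Ezh2 E2F word began at position 4, counting the start site as position 1 and the base before it as -1, and the Suz12 word at position -219. The Dnmt1 and Uhrf1 stretches come from the third and the second of their annotated start sites. The Tet3 stretch, from the only gene of the 10 called between the groups, holds CCAAT and no E2F word. Its window lies inside the span of the gene, whose 5′ end on the minus strand is at 83459084, and that end was not searched.

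The libraries were first checked against their labels. Sdc1, which encodes CD138, was between 49.6 and 78.1 in the PC libraries and at most 0.0585 in the MBC libraries, in scaled TPM. TPM is a transcript's share of its library, corrected for transcript length, and scaled TPM is the deposited value divided by a factor for each library (1.48 to 2.05 in MBCs and 0.636 to 0.813 in PCs). The factors were used because immunoglobulin transcripts made up 49.4% to 55.9% of the TPM in PCs and at most 3.16% in MBCs. Mitochondrial transcripts made up 33.2%, 33.5% and 19.7% of the TPM in MBC1 to MBC3 and 8.10% to 9.80% in PCs. Genes above 0 numbered 12983, 11527 and 18061 in MBC1 to MBC3 and between 14463 and 16768 in PCs. Fits without MBC3 thus rest on the 2 MBC libraries with the most mitochondrial RNA and the fewest genes above 0. The library labelled MBC3 stood apart. Its Cd38 was 6.77 scaled TPM, against 130.3 and 185.7 in MBC1 and MBC2, and its Pdcd1lg2, which encodes CD273, was 2.59 against 43.3 and 24.4. Ighd, which encodes IgD, went the other way for this IgD-negative sort. It was 9.55 in MBC3, against 85.8 and 39.9 in MBC1 and MBC2, with PC libraries between 14.2 and 38.8. The correlation of MBC3 with the PC libraries over the genes tested was between 0.70 and 0.777, above its 0.687 and 0.681 with the other MBC libraries. MBC1 and MBC2 correlated with each other at 0.675, so by this measure MBC3 was no less like them than they were like each other. Pairs of PC libraries correlated at 0.85 to 0.957. The summed level of 12 proliferation genes was 225, 231 and 1170 scaled TPM in MBC1 to MBC3 and between 564 and 839 in PCs, and that of 7 GC genes was 226, 274 and 678 in the same order, with PC libraries between 79.0 and 144.2. Results are therefore given with and without that library. Erythroid transcripts summed to 4524 scaled TPM in MBC2 and to at most 122 in any other library. The depth was estimated at 6.31 to 11.5 reads per kb and TPM in MBC libraries and 9.46 to 16.04 in PC libraries. A floor of 3 reads of a 1 kb transcript came to between 0.127 and 0.39 scaled TPM, which covers counting error only.

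The question put to the 10 genes was whether the RNA of the machinery that writes and removes these marks differs between the sorted MBCs and the sorted PCs. Of the 10, Tet3 alone was called, and it fell in PCs. A gene was called at a limma adjusted p under 0.05, taken over all 11573 genes, with a log2 fold change of at least 1 in size on log2(scaled TPM + 1), which understates changes of low genes. The background was 2.14% of genes called lower and 6.41% called higher in PCs, and 1 gene called among 10 is too few to be read as a share. At an unadjusted p under 0.05 limma gave 0 of the 10 higher and 1 lower, Tet3. The median log2 fold change was -0.43 over the 10 genes and 0.14 over all genes tested. In bulk RNA, fewer cells that express a gene and less of its RNA in each cell cannot be told apart.

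**Figure D1:**
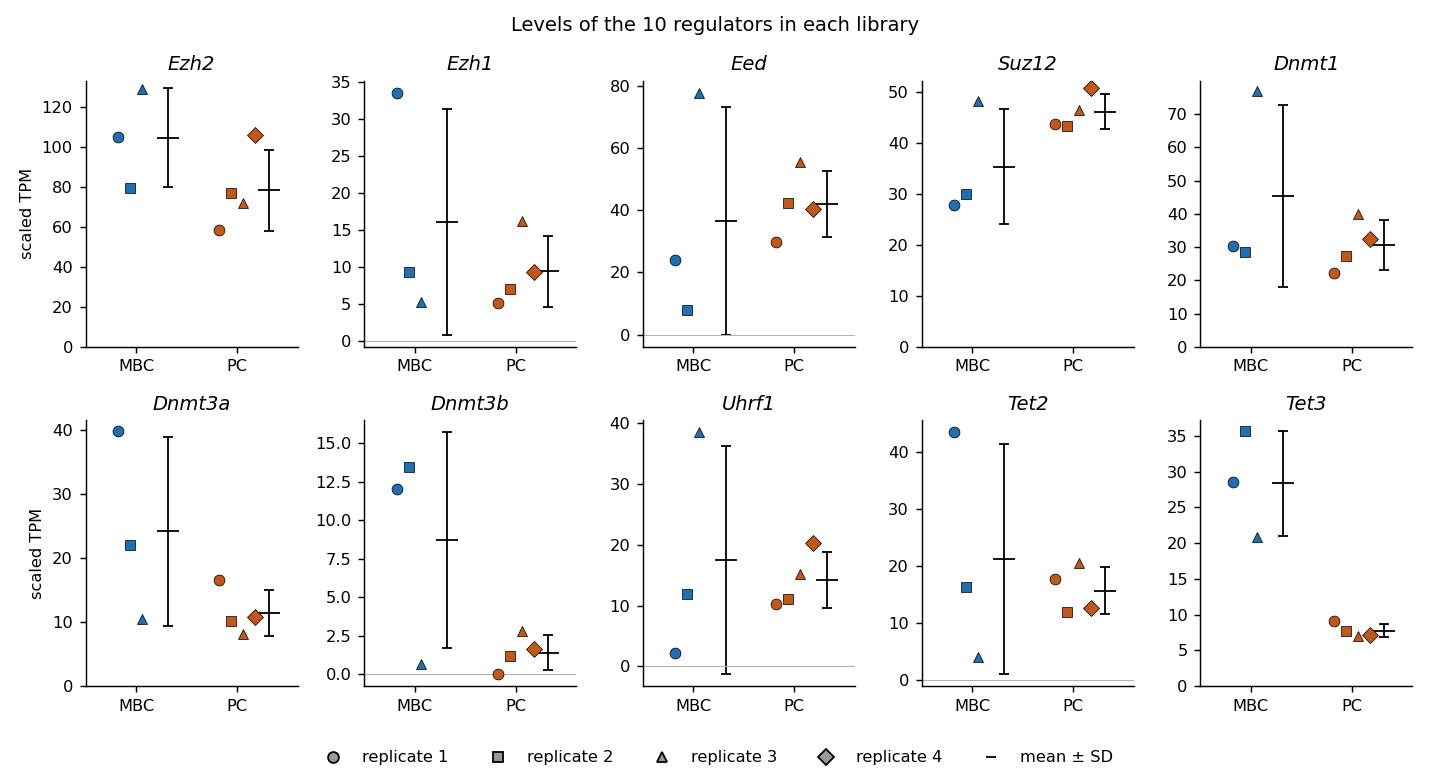
Scaled TPM of each regulator (y axis of each panel, starting at 0 or just under it) in the 3 MBC libraries (blue) and the 4 PC libraries (orange); the marker shape gives the replicate and the black bar the mean ± SD. Tet3 is the only panel without overlap between the groups, with 20.9 to 35.7 in MBCs and 7.06 to 9.12 in PCs, and the triangle of MBC3 is the highest or the lowest blue point in all 10 panels.

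Tet3, on chromosome 6 (83362373 to 83459084, minus strand, GRCm38), encodes a methylcytosine dioxygenase. Its level was 28.5, 35.7 and 20.9 scaled TPM in MBC1 to MBC3, and 9.12, 7.74, 7.06 and 7.17 in PC1 to PC4. Every MBC library, the one labelled MBC3 included, lay above every PC library. The groups did not overlap, as held for 21.7% of all genes tested. MBCs averaged 28.3 ± 7.39 scaled TPM (SD, n = 3) and PCs 7.77 ± 0.949 (SD, n = 4). The log2 fold change was -1.72 (SE 0.39, 95% confidence interval -2.60 to -0.83; limma, adjusted p = 0.0263). Without the library labelled MBC3 it was -1.90 (adjusted p = 0.0112). Each of the other 6 libraries, when left out, cost the call, although the log2 fold change was between -1.78 and -1.56. In those fits the limma adjusted p was 0.0560 without MBC1, 0.0501 without MBC2, 0.0522 without PC1, 0.0984 without PC2, 0.0826 without PC3 and 0.0913 without PC4. Within the 5 libraries that share the more frequent title prefix, whose meaning the labels do not give, it was -1.87 (adjusted p = 0.0451). The other prefix has 1 library per group, 20.9 in MBC3 and 7.17 in PC4. The full title code is shared by MBC1 with PC1, by MBC2 with PC3 and by MBC3 with PC4. With this code as a block Tet3 was not called (-1.72; limma, adjusted p = 0.148), nor with the replicate number as a block (-1.68; limma, adjusted p = 0.199).

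Among the genes whose levels over the 7 libraries were most like those of Tet3 were Tlr9, which encodes a sensor of DNA in B cell endosomes (Pearson's r = 0.995), and Ciita, the master activator of MHC class II genes (r = 0.994). Like Tet3, both were called lower in PCs, with log2 fold changes of -3.12 for Tlr9 (limma, adjusted p = 0.0027) and -4.11 for Ciita (limma, adjusted p = 0.000779). They were picked as the closest of all genes tested, so these correlations are descriptions. B cell markers moved with Tet3 too: of 7, 5 were called lower in PCs, and their summed level ranged from 2014 to 5117 scaled TPM over MBC libraries and from 1084 to 1216 over PC libraries. T cell transcripts moved the other way, with 8 markers summing to 0, 0 and 2.40 scaled TPM in the MBC libraries and to between 18.5 and 35.6 in the PC libraries. All 8 T cell markers were listed at 0 in MBC1 and MBC2, and between 0 and 4 of them in the PC libraries. Myeloid markers summed to 5.73 to 40.2 in MBC libraries and 23.2 to 31.0 in PC libraries. The part of other cells in the Tet3 difference was not tested.

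Tet2 encodes another enzyme of the TET family. It was 43.5, 16.3 and 4.02 scaled TPM in MBC1 to MBC3, and 17.8, 12.0, 20.5 and 12.7 in PC1 to PC4. The MBC libraries thus held both the highest and the lowest value, and the 4 PC libraries lay between them. Its log2 fold change was 0.06 (SE 0.67, 95% confidence interval -1.45 to 1.57; limma, adjusted p = 0.969). The interval reached past 1 on both sides of 0, so a difference of that size could not be told from none. Without the library labelled MBC3 the sign turned, to -0.76 (adjusted p = 0.294). Tet2 and Tet3 together averaged 49.6 ± 23.6 scaled TPM over the MBC libraries (SD, n = 3) and 23.5 ± 4.33 over the PC libraries (SD, n = 4).

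The balance between the TET genes was also compared within libraries, where the scaling factor plays almost no part. Tet3 made up 39.6%, 68.6% and 83.9% of the Tet2 and Tet3 TPM in MBC1 to MBC3, and 33.9%, 39.3%, 25.6% and 36.1% in PC1 to PC4. Tet3 was the lower of the pair in all 4 PC libraries and in MBC1, whose share lay just above that of PC2, the highest PC library. On the log2(scaled TPM + 1) scale MBC1 lay just below PC2. The log2 ratio of Tet3 to Tet2 averaged 0.87 ± 1.37 over MBC libraries (SD, n = 3) and -0.90 ± 0.37 over PC libraries (SD, n = 4). The difference of -1.77 did not pass the exact two-sided permutation test (p = 0.0571, where 0.0286 is the smallest p the design allows; adjusted p = 0.229 over the 4 ratios compared). With the deposited TPM and a pseudocount of 0.1 the difference was -1.93 (exact permutation test, p = 0.0286).

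**Figure D2:**
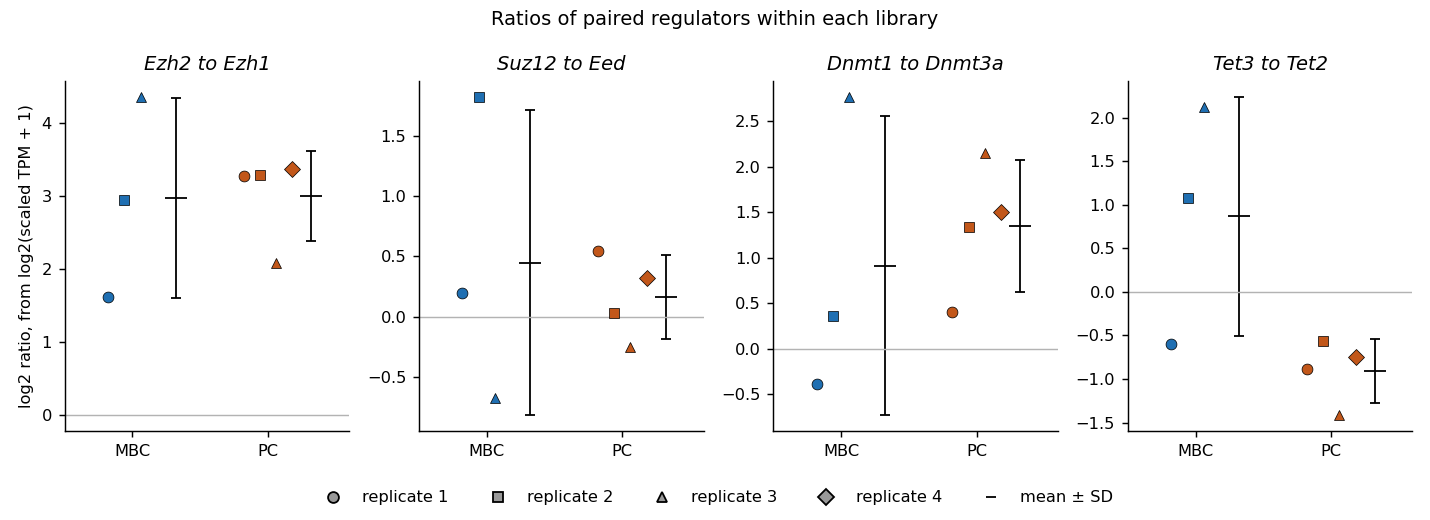
Log2 ratio of 2 regulators within each library (y axis, from log2(scaled TPM + 1); 0 means equal levels) for 4 pairs, in MBCs (blue) and PCs (orange), with the mean ± SD in black. The Tet3 to Tet2 ratio lay between -1.42 and -0.57 in PCs and between -0.59 and 2.12 in MBCs, and the Ezh2 to Ezh1 ratio was above 0 in all 7 libraries.

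Among the DNA methyltransferases, Dnmt3b and Dnmt3a, which set methylation on unmethylated DNA, lay lower in every PC library than in MBC1 and MBC2. Dnmt3b was 12.0, 13.5 and 0.668 scaled TPM in MBC1 to MBC3, listed at 0 in PC1, and 1.14, 2.78 and 1.65 in PC2 to PC4. MBC1 and MBC2 stood above every PC library, whereas the library labelled MBC3 lay within the PC range. All Dnmt3b values other than the one listed at 0 were above the floor of their library. With all 7 libraries the log2 fold change was -1.66 (SE 0.83, 95% confidence interval -3.52 to 0.20; limma, adjusted p = 0.260), and Dnmt3b was not called. Without the library labelled MBC3 it was -2.60 (SE 0.61; limma, adjusted p = 0.0216) and Dnmt3b was called lower. In that fit 2 of the 10 genes, Dnmt3b and Tet3, were called lower and 0 higher, where 7.95% of all genes were called lower and 13.6% higher. At an unadjusted p under 0.05 the counts were 3 lower and 1 higher, adding Dnmt3a and Eed.

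Dnmt3a showed the same arrangement at a higher level. It was 39.9, 22.1 and 10.5 scaled TPM in MBC1 to MBC3, and 16.6, 10.2, 8.21 and 10.8 in PC1 to PC4. MBC1 and MBC2 again lay above all PC libraries and MBC3 among them. The log2 fold change was -0.87 (SE 0.51, 95% confidence interval -2.01 to 0.27; limma, adjusted p = 0.335), and -1.34 without the library labelled MBC3 (adjusted p = 0.0631). Dnmt3a was the larger part of the pair in all 7 libraries, between 62.1% and 94.0% of the Dnmt3a and Dnmt3b TPM over the MBC libraries and from 74.7% up to all of it over the PC libraries. MBCs averaged 32.9 ± 20.5 scaled TPM for the sum of both (SD, n = 3) and PCs 12.8 ± 2.58 (SD, n = 4).

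Dnmt1, the maintenance methyltransferase, was 30.4, 28.6 and 77.0 scaled TPM in MBC1 to MBC3, and 22.4, 27.4, 40.0 and 32.3 in PC1 to PC4. MBC1 and MBC2 lay inside the PC range and only the library labelled MBC3 exceeded it. The log2 fold change was -0.43 with all libraries (SE 0.44, 95% confidence interval -1.41 to 0.54; limma, adjusted p = 0.588) and 0.02 without that library (adjusted p = 0.979). Its partner Uhrf1, which recognizes hemimethylated DNA behind the replication fork, ranged widely among MBCs, with 2.18, 11.9 and 38.5 scaled TPM in MBC1 to MBC3. In PC1 to PC4 Uhrf1 was 10.3, 11.03, 15.2 and 20.4. The MBC values spanned the PC values on both sides, and the log2 fold change was 0.33 (SE 0.76, 95% confidence interval -1.38 to 2.03; limma, adjusted p = 0.832). The genes most like Uhrf1 over the 7 libraries were Ccp110 (r = 0.984), a centriole gene, and the mitotic kinesins Kif20a and Kif23 (both r = 0.983). The log2 ratio of Dnmt1 to Dnmt3a averaged 0.91 ± 1.65 over MBC libraries (SD, n = 3) and 1.35 ± 0.72 over PC libraries (SD, n = 4), a difference of 0.43 (exact two-sided permutation test, p = 0.629).

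Ezh2 had the highest level of the 10 genes in all 7 libraries on this length-corrected scale, and its mean ranked above 95.6% of tested genes in MBCs and above 92.6% in PCs. It was 105.2, 79.6 and 129.2 scaled TPM in MBC1 to MBC3, and 58.3, 77.1, 71.7 and 106.1 in PC1 to PC4. MBC2 lay below PC4, so the groups overlapped. MBCs averaged 104.6 ± 24.8 scaled TPM (SD, n = 3) and PCs 78.3 ± 20.1 (SD, n = 4). The log2 fold change was -0.42 (SE 0.34, 95% confidence interval -1.17 to 0.33; limma, adjusted p = 0.487). The lower end of the interval, -1.17, is the largest fall in PCs that the interval holds. Without the library labelled MBC3 the log2 fold change was -0.26 (adjusted p = 0.625). Its closest gene over the 7 libraries was Mknk2 (r = 0.984), which encodes a kinase of translation factor eIF4E.

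Ezh1, the alternative catalytic subunit, was lower than Ezh2 throughout. It was 33.4, 9.37 and 5.33 scaled TPM in MBC1 to MBC3, and 5.11, 6.96, 16.2 and 9.33 in PC1 to PC4. Only MBC1 exceeded the PC libraries, and the log2 fold change of -0.45 was smaller than its SE of 0.65 (limma, adjusted p = 0.722). Leaving out MBC1 turned it to 0.23 (adjusted p = 0.830), and leaving out the library labelled MBC3 gave -0.97 (adjusted p = 0.311). Ezh2 made up 75.9%, 89.5% and 96.0% of the Ezh1 and Ezh2 TPM in MBC1 to MBC3 and between 81.6% and 91.9% in PCs. The log2 ratio of Ezh2 to Ezh1 averaged 2.98 ± 1.37 over MBC libraries (SD, n = 3) and 3.01 ± 0.62 over PC libraries (SD, n = 4) (exact two-sided permutation test, p = 1).

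The obligate partners of EZH2 were not called either. Suz12 was 27.8, 30.1 and 48.3 scaled TPM in MBC1 to MBC3, and 43.8, 43.5, 46.5 and 50.9 in PC1 to PC4. MBC1 and MBC2 lay below every PC library and the library labelled MBC3 among them. The log2 fold change was 0.41 (SE 0.34, 95% confidence interval -0.34 to 1.17; limma, adjusted p = 0.492), or 0.65 without that library (adjusted p = 0.144). Eed, which binds the methylated histone tail, was 24.1, 7.76 and 77.7 in MBC1 to MBC3, and 29.7, 42.4, 55.6 and 40.5 in PC1 to PC4. MBC1 and MBC2 again lay below every PC library, and MBC3 lay above them all. The log2 fold change of Eed was 0.70 (SE 0.65; limma, adjusted p = 0.557), 1.49 without the library labelled MBC3 (adjusted p = 0.0626) and -0.11 without MBC2 (adjusted p = 0.918). The log2 ratio of Suz12 to Eed differed by -0.29 between the groups (exact two-sided permutation test, p = 0.771).

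**Figure D3:**
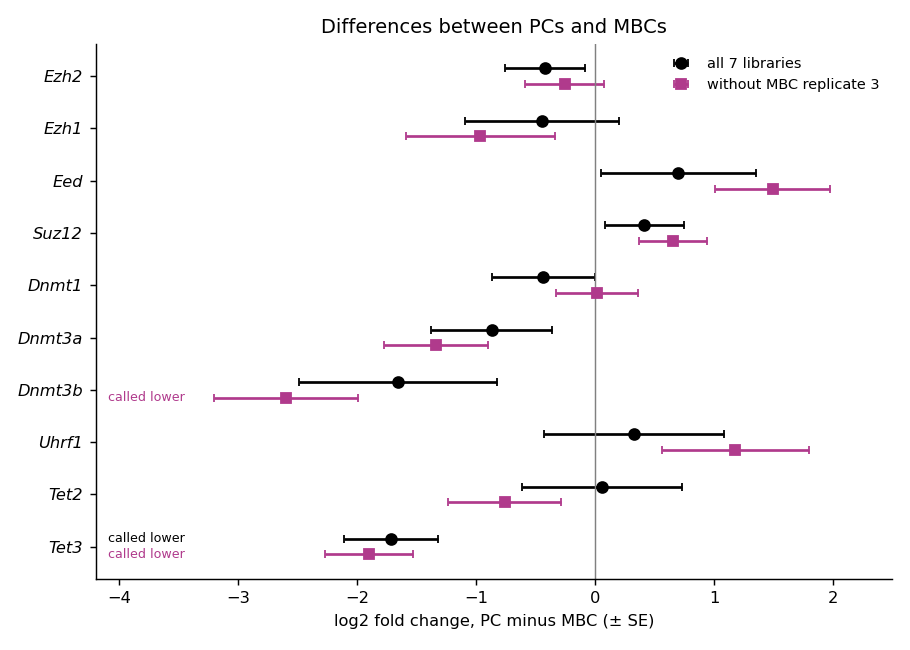
Log2 fold change of each regulator, PC minus MBC (x axis, bars ± SE), from limma with all 7 libraries (black circles) and without MBC3 (purple squares). Tet3 was called lower in both fits, Dnmt3b was called lower without MBC3 (-2.60), and the other 8 were called in neither.

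The library labelled MBC3 divided the 10 genes evenly. Ezh2, Eed, Suz12, Dnmt1 and Uhrf1 were each at their highest MBC level there, and Ezh1, Dnmt3a, Dnmt3b, Tet2 and Tet3 at their lowest. Over all genes tested it was the highest MBC library for 35.7% and the lowest for 28.7%. The 4 genes with an E2F word in a promoter window all belong to the first 5, and Eed, also of the first 5, had no such word. A link between the words and the levels in this library was not tested. On log2(scaled TPM + 1) the library exceeded the mean of MBC1 and MBC2 by 2.62 for Uhrf1, 2.41 for Eed, 1.36 for Dnmt1, 0.72 for Suz12 and 0.49 for Ezh2. It was below that mean by more than 1 for Ezh1, Dnmt3a, Dnmt3b and Tet2, the difference for Dnmt3b being -3.04, and Tet3 differed by -0.59. Of the 12 proliferation genes, 11 were higher there than in any other library, as were all 7 GC genes and 4 of the 10 regulators. Without this library 5 of the 10 genes, Eed, Suz12, Dnmt3a, Dnmt3b and Tet3, had groups that did not overlap, where 43.7% of all genes did so. Closest in pattern over the 7 libraries were Prpf4 for Eed (r = 0.997), Hist1h2be, a histone gene, for Suz12 (0.996), Hnrnpa2b1 for Dnmt1 (0.982), Gpr22 for Ezh1 (0.976), Ube2r2 for Dnmt3a (0.992), Cacul1 for Dnmt3b (0.990) and Gm44888 for Tet2 (0.987). Each is the highest value among all genes tested and is given as a description. With a single library of this kind, its sort, its title prefix and its cells cannot be told apart.

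**Figure D4:**
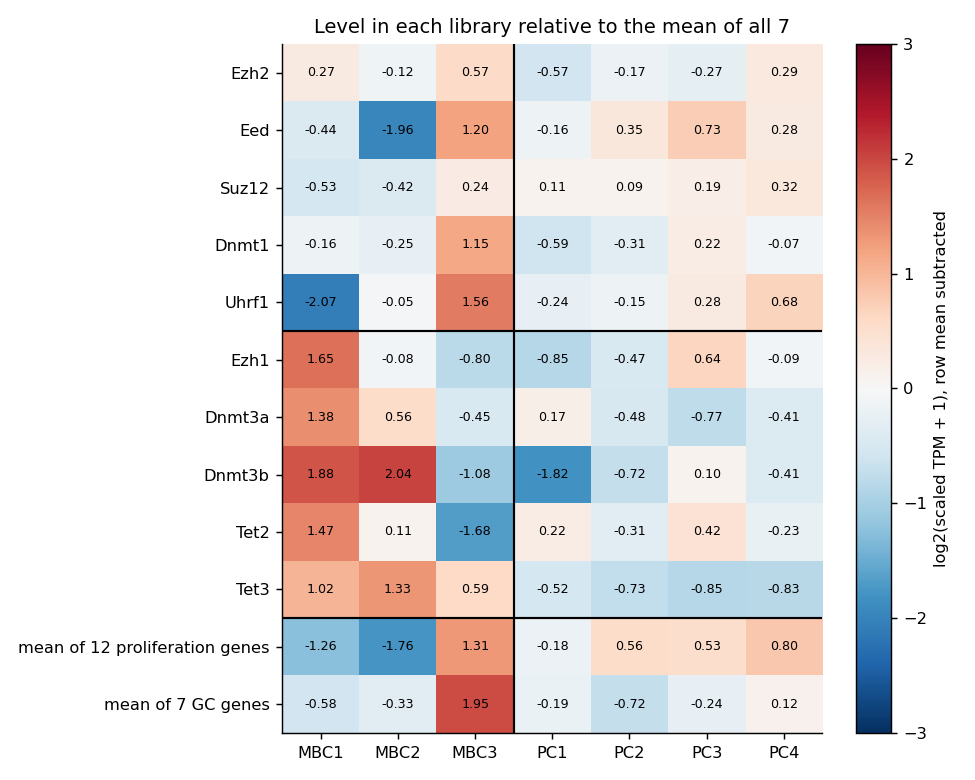
Level of each regulator in each library on log2(scaled TPM + 1) minus the mean of its row over the 7 libraries (red above, blue below), with the mean of 12 proliferation genes and of 7 GC genes in the bottom rows. The upper 5 regulators are reddest in the MBC3 column among the MBCs, as are both bottom rows, and the next 5 have their lowest MBC value there.

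The scaling bears on the direction of several of these genes. The median log2 fold change of all genes tested was 0.14 after scaling and -0.91 in TPM as deposited, where each value is a share of a library that includes the immunoglobulin transcripts. In deposited TPM, Ezh2 (-1.73), Dnmt1 (-1.72), Dnmt3a (-2.11) and Tet3 (-2.95) were called lower. Relative to that median their log2 fold changes were -0.82, -0.81, -1.20 and -2.04. Eed, Suz12, Uhrf1 and Tet2 were above 0 after scaling and below 0 in deposited TPM, and Tet2 was also below 0 once immunoglobulin genes were removed. Relative to the median of all genes in deposited TPM, Eed (0.33), Suz12 (0.030) and Uhrf1 (0.048) remained above 0, and Tet2 was at -0.25, having been at -0.082 relative to the median after scaling. Tet3 was called under every scaling tried, with the limma adjusted p at most 0.0263.

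The remaining genes of these pathways were described through lists. By limma, 0 of 8 tested accessory subunits of PRC2 were called, and 0 had an unadjusted p under 0.05 (median log2 fold change -0.06). The most abundant, Mtf2, which helps PRC2 find unmethylated CpG islands, had a mean of 108.2 ± 63.2 scaled TPM over MBC libraries (SD, n = 3) and of 101.1 ± 17.4 over PC libraries (SD, n = 4). Of 17 tested subunits of PRC1, the complex that reads the EZH2 mark, 1 was called, lower in PCs (median -0.01). It was Phc2, a polyhomeotic subunit, at 26.8, 44.3 and 11.5 scaled TPM in MBC1 to MBC3 and between 2.90 and 5.05 in PCs (log2 fold change -2.29, SE 0.53; limma, adjusted p = 0.0283). Phc2 stayed called without MBC3 and was not called when MBC1, MBC2, PC1, PC2, PC3 or PC4 was left out, with the log2 fold change between -2.76 and -1.88 over the 7 fits (adjusted p at most 0.0861). Without the library labelled MBC3, 3 PRC1 genes were called lower, Phc2, Phc3 and Cbx7, whose product reads the mark. Among 6 genes for demethylases of the EZH2 mark and their enhancer partners, 0 were called and 0 had an unadjusted p under 0.05 (limma; median -0.34). Kmt2d, an enhancer methyltransferase, was 108.0, 205.6 and 32.4 scaled TPM in MBC1 to MBC3 and between 25.3 and 57.8 in PCs, and it was called lower without MBC3 (-1.93; limma, adjusted p = 0.0169).

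No partner of DNA methylation or demethylation was called with all libraries, at 0 of 10 tested in each list (limma; median log2 fold changes 0.12 and 0.62). At an unadjusted p under 0.05 there was 1 methylation partner lower and there were 2 demethylation partners higher. Usp7, which stabilizes UHRF1 and DNMT1, was between 94.4 and 109.0 scaled TPM in MBCs and between 45.6 and 82.8 in PCs without overlap (log2 fold change -0.74; limma, adjusted p = 0.195). Gadd45b, linked to active demethylation, was 6.73, 5.34 and 24.0 in MBC1 to MBC3 and averaged 34.2 ± 5.23 in PCs (SD, n = 4), with all PC libraries above all MBC libraries (log2 fold change 1.70; limma, adjusted p = 0.0750). Gadd45b was called higher without the library labelled MBC3 (2.30; limma, adjusted p = 0.00423). Of 10 genes that supply the methyl donor, 0 were called by limma and 2 were higher at an unadjusted p under 0.05 (median 0.36). Their mitochondrial serine enzyme Shmt2 was 38.5, 2.22 and 48.2 in MBC1 to MBC3 and between 60.9 and 88.9 in PCs (2.03; limma, adjusted p = 0.170).

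Genes that EZH2 is known to restrain in B cells were set beside Ezh2 itself. Of 6 tested, 4 were called higher in PCs: Prdm1 (log2 fold change 5.04), Xbp1 (4.07), Irf4 (3.45) and Slamf7 (2.14), with limma adjusted p at most 0.00172. Prdm1, Xbp1 and Irf4 are factors of the PC programme and mark the cell type that was sorted, so their rise describes the sort as well as the list. Whether the rise of Slamf7 does so too was not tested. The cell cycle inhibitors of the list were not called with all libraries. Cdkn1b was between 1.91 and 30.1 scaled TPM in MBCs and between 11.5 and 20.4 in PCs (0.90; limma, adjusted p = 0.5004). Cdkn1a was at most 4.58 in MBCs and between 4.05 and 20.7 in PCs (1.96; limma, adjusted p = 0.158), and without the library labelled MBC3 it was called higher (2.61; limma, adjusted p = 0.0347). Ezh2 differed by -0.42 with all 7 libraries and by -0.26 without the library labelled MBC3.

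Proliferation genes and E2F factors completed the comparison, since Ezh2, Dnmt1 and Uhrf1 are known to rise in cycling cells. With all libraries 0 of 12 proliferation genes and 0 of 11 genes of the E2F and pocket protein families were called by limma, and 0 of either had an unadjusted p under 0.05 (median log2 fold changes 0.79 and 0.40). Without the library labelled MBC3, 6 proliferation genes were called higher in PCs (median 1.54), among them Mki67, at 41.2 and 62.0 scaled TPM in MBC1 and MBC2 and between 187.7 and 238.4 in PCs. In that same fit Ezh2, Dnmt1 and Uhrf1 had log2 fold changes of -0.26, 0.02 and 1.179 (limma, adjusted p = 0.625, 0.979 and 0.212), and none was called.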

How the data were processed

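The authors deposited 1 table of TPM (transcript abundance corrected for length and library total) for 48795 genes in 7 libraries; per the labels the submitters' processing notes name STAR 2.5.2a, RSEM 1.3.0 and DESeq2 1.18.1, and the build GRCm38. The annotation release and the use of strand are not given in the sources used here. Exons of Ezh2, Eed, Suz12, Dnmt3a and Tet2 overlap a gene on the opposite strand by 43 to 261 bases, so a few reads could be shared. Symbols and gene positions came from GENCODE M21. Read depth was estimated from low TPM values, of which 74.1% to 83.0% lay within 0.15 of a whole read, where 30.0% would by coincidence.

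TPM was divided by the median ratio of each library to the geometric mean over 9305 genes above 0 in all libraries. A gene entered the test at 1 TPM or more in 3 or more libraries. The test was limma 3.58.1 (R 4.3.3, eBayes with trend) on log2 of scaled TPM with a pseudocount of 1, all 7 libraries, no covariate and Benjamini-Hochberg adjustment. Ratios were tested by exact permutation over 35 assignments. The other steps ran in Python 3.11.15 with scipy 1.17.1, numpy 2.4.6 and pandas 2.3.3. The limma and depth procedures were tested on simulated data.

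The members, lists and tests were chosen with earlier results of these data known, and the promoter words with the sequences in view. Named were all 10 members, and from each list at most 4 called genes per direction with the largest changes and at most 2 others of the highest level, and for each member up to 3 genes most like it over the libraries.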

Additional observations from a re-analysis of the deposited data

Results flagged for a closer look

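In 3 of 37 values examined, 1 PC library lay far from the other 3, with a gap above Dixon's critical value for 4 samples; chance alone gives this in about 1 in 20 groups. The Ezh2 to Ezh1 log2 ratio was 2.08 in PC3 and between 3.28 and 3.37 in the others, where Ezh1 was 16.2 scaled TPM there and at most 9.33 in the others. Cdkn1a, a cell cycle inhibitor on the list of genes EZH2 restrains, was 20.7 scaled TPM in PC1 and between 4.05 and 4.76 in the others. Mki67, a proliferation gene, was 238.4 scaled TPM in PC3 and between 187.7 and 195.2 in the others. The MBC groups of 3 were not examined in this way.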

How the results depend on the processing

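Of the 10 regulators, 0 were called higher with all libraries and in each alternative run. The number called lower, 1 with all libraries, was 4 in TPM as deposited, between 0 and 2 when 1 library was left out, and 0 with the replicate block by number or by title code; under the replicate block Tet3 was at -1.68 (limma, adjusted p = 0.199). With the title code as the block it was at -1.72 (limma, adjusted p = 0.148). Deviations of same-numbered libraries correlated at 0.109, -0.04 and -0.083, and those of libraries with the same title code at 0.109, -0.004 and 0.222. It was 1 with the title prefix as a covariate and under every pseudocount and filter tried. Over all genes, 742 were called higher and 248 lower; the counts were 472 and 3018 in TPM as deposited, 395 and 433 without immunoglobulin genes, 437 and 123 with every gene above 0, 390 and 60 with the replicate block, and 434 and 83 with the block by title code. Quantile normalization called 490 lower, and the libraries of the more frequent prefix alone 415. Leaving out 1 library gave between 453 and 1572 higher and between 91 and 920 lower. In TPM as deposited the signs of Eed (-0.58), Suz12 (-0.88) and Uhrf1 (-0.86) turned. Leaving out 1 library moved Ezh1 between -0.97 (without MBC3) and 0.23 (MBC1), Eed between -0.11 (MBC2) and 1.49 (MBC3), Dnmt1 between -0.71 (MBC2) and 0.016 (MBC3), Uhrf1 between -0.64 (MBC1) and 1.179 (MBC3), and Tet2 between -0.76 (MBC3) and 0.78 (MBC1). Tet2 turned to -1.16 in TPM as deposited, -0.19 without immunoglobulin genes, -0.07 without PC3, -0.053 with the prefix as a covariate and -0.68 within the more frequent prefix. Leaving out 1 library moved the log2 ratio of Ezh2 to Ezh1 between -0.65 and 0.72, Suz12 to Eed between -0.85 and 0.40, Dnmt1 to Dnmt3a between -0.21 and 1.36, and Tet3 to Tet2 between -2.51 and -1.15. The Ezh2 to Ezh1 ratio was -0.094 in TPM as deposited. In deposited TPM with a pseudocount of 0.1, Tet3 to Tet2 was -1.93 (exact permutation test, p = 0.0286, not adjusted). Beyond these constructions the cause was not tested. MBC1 and MBC2 were the shallowest libraries at a given deposited TPM. In scaled TPM the highest floors were those of PC3 (0.390) and PC1 (0.328), above MBC2 (0.299) and MBC1 (0.261).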
